A study of Mus musculus with 9 samples.

Results

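Cadherins and the transcription factors of epithelial-mesenchymal transition (EMT) were followed as a set of 10 genes, taken by name from the gene count table: the cadherins Cdh1, Cdh2, Cdh3 and Cdh11, and the transcription factors Snai1, Snai2, Twist1, Twist2, Zeb1 and Zeb2. They are 10 of the 54532 genes in the table, and all 10 were among the 16526 genes with enough reads to be tested. Cdh1 met the read minimum only through its reads in the abdominal cells, and Cdh3 only through its reads in the abdominal and perivascular cells. Bulk mRNA sequencing was performed on adipose-derived stem cells (ASCs), the stromal progenitors of fat, which had been isolated from C57BL/6 mice and grown in stem cell medium containing leukemia inhibitory factor and FGF. The groups were ASCs from subcutaneous adipose tissue (Sub-ASCs), from abdominal adipose tissue (Ab-ASCs) and from the perivascular adipose tissue around arteries (PVASCs), with 3 libraries per group and 9 in all. No treatment, transgene or engineered allele set the groups apart, and the age of the mice was not given in the sources used here. The cells were at passages 3 to 6, and which library had which passage was not given, nor whether the 3 libraries of a group came from separate cultures or animals, so p-values measure the spread between these libraries, which may be technical.

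Classical cadherins are transmembrane proteins that join neighbouring cells by binding the same cadherin on the next cell, and their cytoplasmic tails hold catenins that link them to actin. In EMT, epithelial cells lose E-cadherin and gain N-cadherin, a change driven by the zinc-finger repressors Snail and Slug, the zinc-finger homeobox repressors Zeb1 and Zeb2, and the basic helix-loop-helix factors Twist1 and Twist2. These factors bind E-boxes, short DNA motifs present in the promoter of E-cadherin, and they are also expressed in mesenchymal cells such as fibroblasts and adipose stromal cells, which are not epithelial to begin with.

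The libraries held 23781019 to 26872579 reads assigned to genes in Sub-ASCs, 20524173 to 23832828 in Ab-ASCs and 27136829 to 29881036 in PVASCs. Levels are given as reads, as CPM (counts scaled to the size of the library, with TMM factors), or, where genes are compared with each other, as CPM per kilobase of listed gene length (FPKM). The biological coefficient of variation between libraries was 5.69% in Sub-ASCs, 12.3% in Ab-ASCs and 3.86% in PVASCs, and Ab-ASC replicate 1 stood apart from replicates 2 and 3. In that library the median log2 level against the mean of the other libraries of its group was 0.10 in the shortest quartile of gene lengths and -0.07 in the longest. All 10 stromal markers had reads in every group, with a summed level of 23267 to 24080 CPM in Sub-ASCs, 11532 to 11884 in Ab-ASCs and 7243 to 7567 in PVASCs. The fall of that sum was not shared by every marker. Dcn was at 8444 to 9675 CPM in Sub-ASCs and 107 to 115 in PVASCs. Ly6a was at 1919 to 2138 CPM in Sub-ASCs, 19.8 to 25.7 in Ab-ASCs and 107 to 116 in PVASCs. Pdgfra, Pdgfrb, Col1a1, Col1a2 and Lum were also below their Sub-ASC level in PVASCs. Thy1 was higher there, at 870 to 905 CPM against 321 to 344, and Eng and Cd44 were also above their Sub-ASC level. The 9 epithelial markers summed to between 1.53 and 6.50 CPM in any library, and the defining marker Epcam did not exceed 0.752 CPM. Proliferation markers summed to 141 to 148 CPM in Sub-ASCs, 913 to 996 in Ab-ASCs and 888 to 899 in PVASCs, so the groups also differed in growth-related transcripts, and in bulk RNA fewer cells of a type and less RNA per cell cannot be told apart.

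The cadherin and EMT factor genes differed between the depots one by one rather than as a block. Against Sub-ASCs, PVASCs had more Cdh2, Cdh3, Cdh11 and Zeb1 and less Cdh1, Snai1, Snai2, Twist1, Twist2 and Zeb2. In the quasi-likelihood test of edgeR, adjusted by Benjamini-Hochberg over all genes tested (the edgeR adjusted p from here on, threshold 0.05), these 4 rises and 6 falls made 10 of 10 genes, beside 70.4% of all genes tested (34.7% higher and 35.7% lower in PVASCs). Against Ab-ASCs, PVASCs had more Cdh2, Cdh11, Snai2 and Zeb1 and less Cdh1, Cdh3, Snai1, Twist1 and Twist2, while Zeb2 did not pass. That is 9 of 10 genes, 4 higher and 5 lower, beside 56.9% of all genes tested (24.7% higher and 32.1% lower in PVASCs). Between the other pair, Ab-ASCs had more Cdh1, Cdh2, Cdh3 and Snai1 than Sub-ASCs and less Cdh11, Snai2, Twist1, Twist2, Zeb1 and Zeb2, again 10 of 10, with 4 higher and 6 lower, beside 75.3% of all genes tested (37% higher and 38.3% lower in Ab-ASCs). Cdh1 and Cdh3 met the read minimum only through groups where they were high. Their calls against the groups where they were near 0 are shaped by that selection. Without Cdh1 and Cdh3, 8 of 8 genes passed between PVASCs and Sub-ASCs (3 higher and 5 lower). There were 7 of 8 between PVASCs and Ab-ASCs (4 and 3), and 8 of 8 for the remaining pair (2 and 6). Most of the genes tested differed between these depots, so the sizes and directions below carry more than the counts. In the CPM of the libraries, 10, 9 and 10 of the 10 genes had groups that did not overlap in the comparisons in this order, beside 77.3%, 63.9% and 76.5% of all genes tested. A passing change of at least 1 on the log2 scale was found in 4, 3 and 3 of them, beside 32.2%, 15.4% and 37.8% of all genes tested, and in 2, 1 and 1 of the 8 without Cdh1 and Cdh3. The median log2 fold change of the 10 was -0.39, -0.24 and -0.24 in turn, beside -0.01, -0.06 and -0.03 over all genes tested. The 3 comparisons share libraries in pairs and are not independent.

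**Figure D1:**
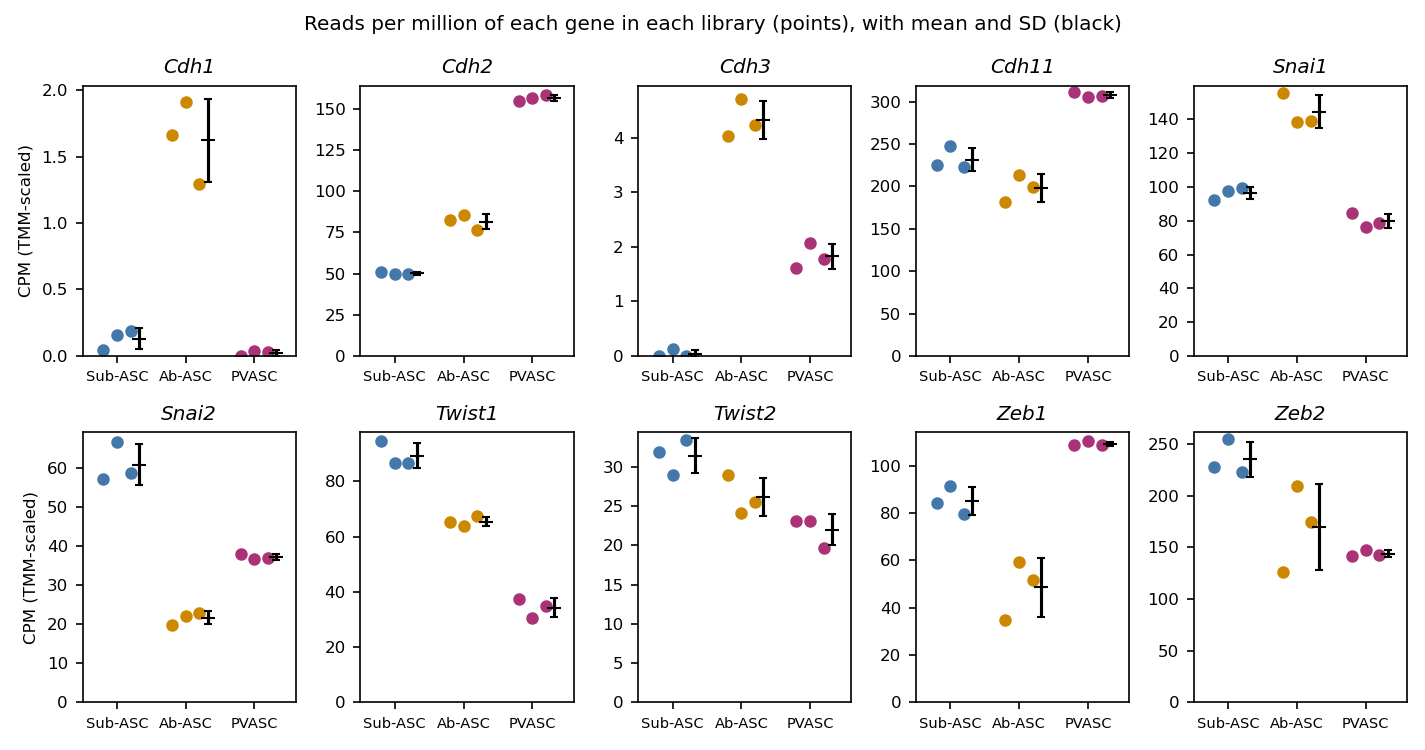
Level of each of the 10 genes in each library (points; CPM on the vertical axis, starting at 0 and differing between panels), with the group mean and SD of 3 libraries in black. Libraries of one group cluster tightly apart from the other groups for most genes, while the Ab-ASC points for Zeb1 (34.7 to 59.3 CPM) and Zeb2 (126 to 209 CPM) spread widely because 1 library lies below the other 2.

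E-cadherin, the product of Cdh1 (ENSMUSG00000000303, GRCm38 chr8:106603351-106670246, plus strand, up to 17 exons), is the adhesion protein of epithelial sheets. Cdh1 was almost unread outside the abdominal cells: 1, 4 and 5 reads in the Sub-ASC libraries, 31, 43 and 29 in the Ab-ASC libraries, and 0, 1 and 1 in the PVASC libraries. The Ab-ASC libraries lay well above both other groups. Its mean level was 1.62 ± 0.311 CPM in Ab-ASCs (SD, n = 3), 0.130 ± 0.077 in Sub-ASCs and 0.022 ± 0.019 in PVASCs. From the summed reads, Ab-ASCs had 12.1 times the Sub-ASC level, with an exact 95% interval of 6.35 to 26.1 that covers counting error only (edgeR adjusted p = 7.24e-06). The ratio of Ab-ASCs to PVASCs was 75.9 (20.5 to 635, edgeR adjusted p = 2.09e-06), and it rests on 2 reads in all 3 PVASC libraries together. Cdh1 met the read minimum through Ab-ASCs alone, so both adjusted p-values are shaped by that selection. Between Sub-ASCs and PVASCs, with 10 reads against 2, the ratio was 6.25 (1.33 to 58.6) at an edgeR adjusted p of 0.0261. That call was lost without Sub-ASC replicate 2, Sub-ASC replicate 3 or PVASC replicate 1 and with DESeq2 (adjusted p = 0.0525), the adjusted p ranging from 0.0119 to 0.0997 over the alternatives. Even in Ab-ASCs, Cdh1 reached only 0.355 FPKM, against 10.1 FPKM for Cdh2 in the same cells.

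P-cadherin, the product of Cdh3 (ENSMUSG00000061048, chr8:106510891-106557297, plus strand, 16 exons), is found in basal epithelial layers and the placenta. The gene ends 46053 bases before the start of Cdh1 on the same strand, with 2 other listed genes between them. Sub-ASC libraries held 0, 3 and 0 Cdh3 reads, Ab-ASC libraries 75, 106 and 95, and PVASC libraries 53, 61 and 56. Unlike Cdh1, Cdh3 was therefore read in both the abdominal and the perivascular cells, at 4.32 ± 0.351 CPM in Ab-ASCs and 1.82 ± 0.227 CPM in PVASCs. The summed reads gave a ratio to Sub-ASCs of 109 for Ab-ASCs (36.7 to 529, edgeR adjusted p = 2.57e-08) and 45.4 for PVASCs (15.3 to 222, edgeR adjusted p = 7.26e-07). Cdh3 met the read minimum only through Ab-ASCs and PVASCs, so both adjusted p-values are shaped by that selection. All 3 Sub-ASC reads lay in replicate 2, and without it the fitted log2 fold changes went from 6.60 to 9.81 and from 5.35 to 8.56. PVASCs had less than Ab-ASCs, by a ratio of 2.39 (1.97 to 2.91, edgeR adjusted p = 0.000388), and the groups did not overlap. In FPKM, Cdh3 averaged 0.987 in Ab-ASCs and 0.416 in PVASCs.

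The summed level of markers of the mesothelium, the epithelium-like lining of the body cavities, had the order of depots seen for Cdh3, though not every marker did. The 13 markers summed to 8.46 to 9.51 CPM in Sub-ASCs, 139 to 148 in Ab-ASCs and 62.2 to 63.6 in PVASCs. In Sub-ASCs, Upk1b, Lrrn4 and Muc16 were at 0 and 10 of the 13 had reads, while in both other groups all 13 had reads. Wt1, a mesothelial transcription factor, ranged from 45.5 to 51.7 CPM in Ab-ASCs, 9.57 to 10.3 in PVASCs and 0.381 to 0.904 in Sub-ASCs. Krt19 (14.4 to 15.1 CPM), Cldn15 (9.57 to 10.9) and Gpm6a (up to 1.93) were highest in PVASCs, and Krt7 and Krt8, at most 0.306 and 0.382 CPM in PVASCs, overlapped there with Sub-ASCs. The part of these cells in the Cdh1 and Cdh3 differences was not tested.

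N-cadherin, the product of Cdh2 (ENSMUSG00000024304, chr18:16588877-16809246, minus strand, up to 16 exons), is the cadherin of neurons, muscle and mesenchymal cells. Its CPM was 51.1, 49.8 and 49.5 in the Sub-ASC libraries, 82.4, 85.6 and 76.7 in the Ab-ASC libraries, and 155, 157 and 158 in the PVASC libraries. The groups formed 3 separate steps with no overlap, PVASCs at the top. Cdh2 rose in PVASCs by 1.64 on the log2 scale over Sub-ASCs (SE 0.056, edgeR adjusted p = 4.49e-11) and by 0.94 over Ab-ASCs (SE 0.054, edgeR adjusted p = 3.41e-08). It was higher in Ab-ASCs than in Sub-ASCs by 0.70 (SE 0.056, edgeR adjusted p = 1.66e-07).

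Cadherin-11, the product of Cdh11 (ENSMUSG00000031673, chr8:102632095-102785642, minus strand, up to 13 exons), was first known from osteoblasts and is a cadherin of fibroblasts. Its CPM was 225, 247 and 223 in Sub-ASCs, 182, 214 and 199 in Ab-ASCs, and 312, 305 and 307 in PVASCs. Every PVASC library lay above the others, and the Ab-ASC libraries all lay below the Sub-ASC ones. The differences were small: PVASCs exceeded Sub-ASCs by 0.41 on the log2 scale (SE 0.065, edgeR adjusted p = 0.000103) and Ab-ASCs by 0.63 (SE 0.065, edgeR adjusted p = 6.01e-06), and the log2 fold change of Ab-ASCs over Sub-ASCs was -0.22 (SE 0.065, edgeR adjusted p = 0.00754). Per kilobase, Cdh11 was above Cdh2 in every library. The ratio of their FPKM fell from 4.19 ± 0.269 in Sub-ASCs (SD, n = 3) through 2.21 ± 0.187 in Ab-ASCs to 1.78 ± 0.0393 in PVASCs, with no overlap between groups.

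To place the 4 cadherins among their relatives, 15 other classical and related cadherins were added, of which 9 had enough reads to be tested. Between PVASCs and Sub-ASCs 8 of the 9 passed, 7 higher and 1 lower, beside 70.4% of all genes tested. With Ab-ASCs as the reference for PVASCs, 6 rose and 2 fell, beside 56.9%, and in Ab-ASCs 5 rose and 4 fell from the Sub-ASC level, beside 75.3%. Cdh9, Cdh10, Cdh18, Cdh19 and Cdh22 met the read minimum only through the groups where they were high. Their calls against the remaining groups are shaped by that selection. The 4 that met the minimum in every group were Cdh5, Cdh6, Cdh13 and Cdh24. They gave 3 higher and 0 lower, 3 higher and 1 lower, and 2 higher and 2 lower in these comparisons. Summed over all 19 cadherins, the level was 45.1 to 49.0 FPKM in Sub-ASCs, 38.8 to 42.7 in Ab-ASCs and 109 to 111 in PVASCs. In Sub-ASCs and Ab-ASCs, Cdh11 made up more than any other cadherin, 55.9% ± 0.705 and 55.0% ± 2.09 of the sum (SD, n = 3). In PVASCs its share was 31.4% ± 0.235, and Cdh5 held the largest share at 45.2% ± 0.142. Cdh2 supplied 13.4% ± 0.675 in Sub-ASCs, 25.0% ± 1.26 in Ab-ASCs and 17.6% ± 0.311 in PVASCs, so the depot with the highest Cdh2 level did not have its highest share. Cdh1 and Cdh3 stayed minor, at most 0.979% and 2.52% of the sum in any library.

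**Figure D2:**
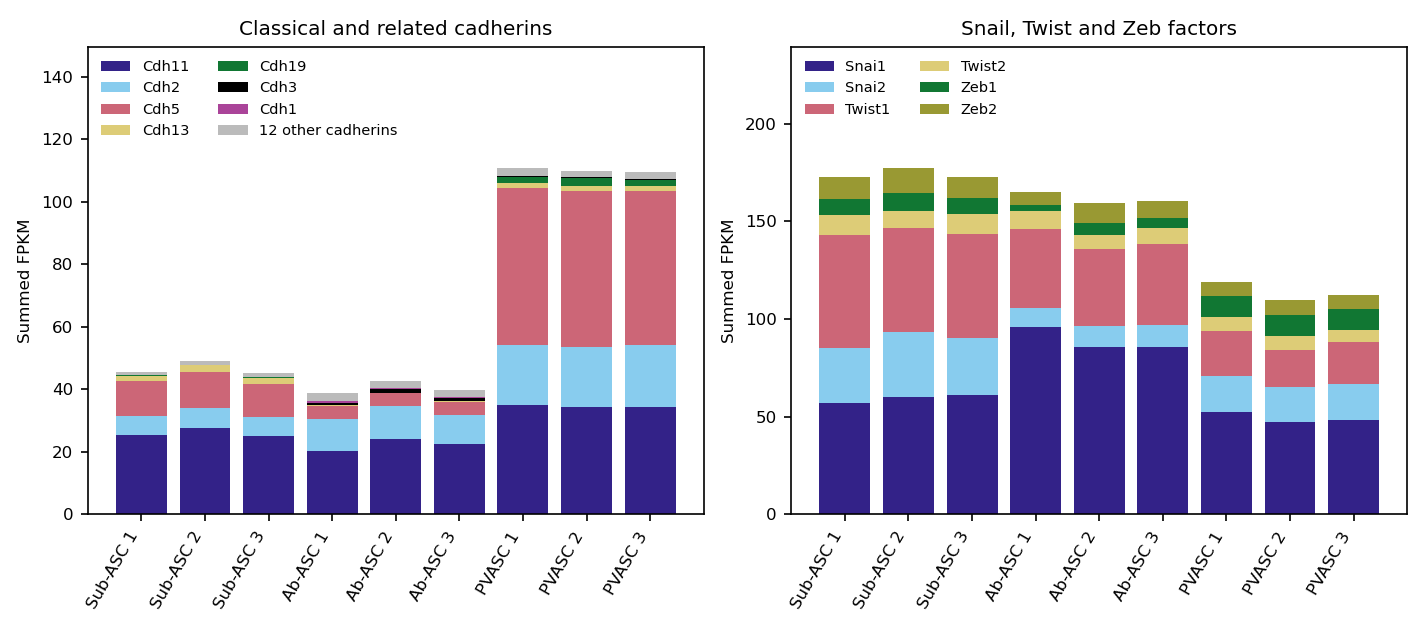
Summed FPKM of 19 classical and related cadherins (left) and of the 6 Snail, Twist and Zeb factors (right) in each of the 9 libraries, with each gene's part in its own colour. The cadherin sum is highest in PVASCs (109 to 111 FPKM), mostly through Cdh5, Cdh11 and Cdh2, while the factor sum is lowest there (110 to 119 FPKM).

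VE-cadherin, the product of Cdh5 and the junctional cadherin of endothelium, averaged 11.1 ± 0.572 FPKM in Sub-ASCs, 4.09 ± 0.126 in Ab-ASCs and 49.7 ± 0.452 in PVASCs, and PVASCs exceeded them by 2.17 and 3.60 on the log2 scale (edgeR adjusted p = 3.72e-12 and 1.86e-12). The 7 endothelial markers, Cdh5 among them, summed to 761 to 775 CPM in PVASCs, 178 to 193 in Sub-ASCs and 89.1 to 91.3 in Ab-ASCs, and all 7 had reads in every group. Pecam1, Kdr and Emcn were highest in PVASCs like Cdh5, whereas Tek was highest in Sub-ASCs (42.5 to 49.6 CPM, against 14.4 to 15.4 in PVASCs) and Vwf stayed between 1.59 and 2.81 CPM in every library. Flt1 was highest in PVASCs (44.8 or more) but, unlike Cdh5, higher in Ab-ASCs (24.9 to 26.6) than in Sub-ASCs (9.57 to 10.2). The part of endothelial transcripts in the cadherin sum was not tested. Cdh13, or T-cadherin, which is held by a lipid anchor and has no cytoplasmic tail, was at 1.89 ± 0.135 FPKM in Sub-ASCs, 1.67 ± 0.158 in PVASCs and 0.222 ± 0.073 in Ab-ASCs. It passed against Ab-ASCs in both other groups (log2 fold change -3.12 for Ab-ASCs against Sub-ASCs, edgeR adjusted p = 3.82e-09) but not between PVASCs and Sub-ASCs (-0.19, edgeR adjusted p = 0.209).

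Some of the rarer cadherins were read in only part of the depots. Cdh9 had 30, 34 and 45 reads in Sub-ASCs and none elsewhere, which with a floor of 3 reads per library for the groups at 0 makes Sub-ASCs at least 15.0-fold higher than PVASCs, and at least 10.1-fold higher than Ab-ASCs. Cdh19, a cadherin of the neural crest and Schwann cell lineage, had 269, 287 and 241 reads in PVASCs, 22, 21 and 22 in Sub-ASCs and none in Ab-ASCs, so that PVASCs were at least 59.8-fold higher than Ab-ASCs by the same floor. The 5 neural and Schwann markers summed to 121 to 124 CPM in PVASCs, 39.6 to 48.0 in Ab-ASCs and 19.8 to 20.4 in Sub-ASCs, and their part in the Cdh19 level was not tested. Cdh18 had 21, 17 and 22 reads in PVASCs, 1, 6 and 4 in Ab-ASCs and none in Sub-ASCs. Cdh10 averaged 0.0053 FPKM in Sub-ASCs, 0.0783 in Ab-ASCs and 0.199 in PVASCs, and Cdh24 averaged 0.402, 0.654 and 1.28 FPKM in the same order, each step passing the test for Cdh24. For Cdh10, with 1, 2 and 1 reads in Sub-ASCs, the step between PVASCs and Ab-ASCs passed as well (log2 fold change 1.31, edgeR adjusted p = 0.00135).

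Catenins, which connect cadherins to the cytoskeleton, were tested in 9 of the 10 genes listed, and Ctnna3, with FPKM of at most 0.005, was not tested. From the Sub-ASC level, 7 rose and 1 fell in PVASCs (median log2 fold change 1.56, and -0.01 over all genes), and 6 rose and 1 fell in Ab-ASCs (0.62, and -0.03 over all genes). From the Ab-ASC level, 4 rose and 1 fell in PVASCs (0.08, and -0.06 over all genes). Of all genes tested, 34.7% rose and 35.7% fell in the first of these comparisons, 37% and 38.3% in the next, and 24.7% and 32.1% in the last. Ctnna2 and Ctnnd2 met the read minimum in only part of the groups, and without them 5 rose and 1 fell, 6 rose and 1 fell, and 2 rose and 1 fell, of 7. Beta-catenin (Ctnnb1), which binds the cadherin tail, was at 127 ± 1.75 FPKM in Sub-ASCs, 137 ± 4.32 in Ab-ASCs and 133 ± 2.79 in PVASCs, and passed only between Ab-ASCs and Sub-ASCs (log2 fold change 0.11, edgeR adjusted p = 0.0375). Alpha-catenin (Ctnna1) and vinculin (Vcl), the actin-linking partners, were low in Sub-ASCs and higher in both others: 80.9, 156 and 164 FPKM for Ctnna1 and 14.2, 66.8 and 57.5 FPKM for Vcl in Sub-ASCs, Ab-ASCs and PVASCs. The p120 family went in different directions. Ctnnd1 (p120-catenin) was at 4.46, 6.83 and 7.20 FPKM and Pkp4 at 2.32, 7.48 and 7.70 FPKM in that order, each higher in Ab-ASCs and PVASCs than in Sub-ASCs, while Arvcf fell from 2.28 in Sub-ASCs to 0.534 in Ab-ASCs and 1.11 in PVASCs. Plakoglobin (Jup), shared by adherens junctions and desmosomes, was highest in PVASCs at 8.52 ± 0.0694 FPKM, against 2.89 and 3.49 in Sub-ASCs and Ab-ASCs. The neuronal catenins Ctnna2 and Ctnnd2 stayed below 0.25 FPKM in every library.

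Among the transcription factors, Snail (Snai1, ENSMUSG00000042821, chr2:167538195-167542814, plus strand, 3 exons) is the zinc-finger repressor first tied to loss of E-cadherin. Its CPM was 92.3, 97.6 and 99.2 in Sub-ASCs, 156, 139 and 139 in Ab-ASCs, and 84.7, 76.5 and 78.5 in PVASCs. Snai1 was highest in the abdominal cells, the same group with the most Cdh1 reads, and the groups did not overlap. It was higher in Ab-ASCs than in Sub-ASCs by 0.58 on the log2 scale (SE 0.064, edgeR adjusted p = 3.94e-06), and PVASCs were below Ab-ASCs by -0.85 (SE 0.065, edgeR adjusted p = 4.01e-07). Between PVASCs and Sub-ASCs the log2 fold change was -0.27 (SE 0.064, edgeR adjusted p = 0.00246). Per kilobase, Snai1 had the highest group mean of the 6 factors in each group, at 59.4, 89.1 and 49.3 FPKM in Sub-ASCs, Ab-ASCs and PVASCs. In Sub-ASC replicate 1, however, Twist1 (58.1 FPKM) was above Snai1 (56.9 FPKM).

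Slug (Snai2, ENSMUSG00000022676, chr16:14705852-14709385, plus strand, 3 exons), the close paralogue of Snail known from neural crest and fibroblasts, differed from Snai1 in direction in both comparisons with Ab-ASCs and shared its direction, lower, in PVASCs against Sub-ASCs. Its CPM was 57.1, 66.7 and 58.7 in Sub-ASCs, 19.8, 22.2 and 23.0 in Ab-ASCs, and 38.0, 36.8 and 36.8 in PVASCs. Sub-ASCs were highest and Ab-ASCs lowest, with no overlap. The fall in Ab-ASCs against Sub-ASCs was the largest change of any of the 6 factors, a log2 fold change of -1.49 (SE 0.078, edgeR adjusted p = 3.04e-09). PVASCs lay between them, -0.71 from Sub-ASCs (SE 0.074, edgeR adjusted p = 2.53e-06) and 0.78 from Ab-ASCs (SE 0.078, edgeR adjusted p = 5.08e-06). The ratio of Snai1 to Snai2 in FPKM was 8.38 ± 1.24 in Ab-ASCs (SD, n = 3), against 1.98 ± 0.144 in Sub-ASCs and 2.68 ± 0.0956 in PVASCs.

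Twist1 (ENSMUSG00000035799, chr12:33957671-33959829, plus strand, 2 exons) encodes a basic helix-loop-helix factor of the mesoderm and neural crest. Its CPM was 94.5, 86.7 and 86.6 in Sub-ASCs, 65.4, 63.8 and 67.3 in Ab-ASCs, and 37.3, 30.7 and 35.1 in PVASCs. The levels stepped down from subcutaneous through abdominal to perivascular cells with no overlap. PVASCs were below Sub-ASCs by a log2 fold change of -1.38 (SE 0.075, edgeR adjusted p = 4.34e-09) and below Ab-ASCs by -0.93 (SE 0.075, edgeR adjusted p = 7.05e-07), and Ab-ASCs were below Sub-ASCs by -0.45 (SE 0.073, edgeR adjusted p = 0.000129).

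Twist2 (ENSMUSG00000007805, chr1:91801461-91848028, plus strand, 2 exons), the paralogue also called Dermo1 for its expression in dermis, had 31.9, 28.9 and 33.4 CPM in Sub-ASCs, 28.9, 24.1 and 25.5 in Ab-ASCs, and 23.1, 23.1 and 19.7 in PVASCs. The order of the group means was that of Twist1, but the steps were small, and the highest Ab-ASC library lay just under the lowest Sub-ASC one. Only the outer step held under all the alternatives tried short of a fold-change minimum, a log2 fold change of -0.51 between PVASCs and Sub-ASCs (SE 0.091, edgeR adjusted p = 0.000268). Against Sub-ASCs, the log2 fold change of Ab-ASCs was -0.26 (SE 0.092, edgeR adjusted p = 0.0201) and did not pass without Sub-ASC replicate 1 or 3 or Ab-ASC replicate 2 or 3, the adjusted p ranging from 0.00134 to 0.0824 over the alternatives. That between PVASCs and Ab-ASCs was -0.25 (SE 0.093, edgeR adjusted p = 0.037), did not pass with DESeq2 (0.0782), RLE scaling (0.0539), only these groups in the fit (0.14), 10 reads required in every library (0.0704), or without Sub-ASC replicate 1, Ab-ASC replicate 1 or 3, or PVASC replicate 3, and ranged from 0.0186 to 0.157. Gm29100, an antisense gene over the start of Twist2, had 22 to 68 reads per library, and since the strand setting of the counting was not stated, reads of the 2 genes cannot be told apart where they overlap. The ratio of Twist1 to Twist2 in FPKM was 5.56 ± 0.435 in Sub-ASCs, 4.91 ± 0.427 in Ab-ASCs and 3.07 ± 0.448 in PVASCs.

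Promoter sequence was available for Snai1, which was highest in Ab-ASCs, and for Twist1 and Twist2, whose means fell in the same order of depots, and is shown as the 250 bases just upstream of each start site (RefSeq, GRCm38.p6, 5′ to 3′ on the gene's strand). Windows of this length were searched for the E-box bound by Snail and Zeb repressors, written CACCTG on one strand and CAGGTG on the other. In capitals is the 1 match, in Snai1, whose leading base lies at -126 from the start site, and no match was present in the windows of Twist1, Twist2 or any of the Zeb2 starts.
Snai1, chr2:167537945-167538194: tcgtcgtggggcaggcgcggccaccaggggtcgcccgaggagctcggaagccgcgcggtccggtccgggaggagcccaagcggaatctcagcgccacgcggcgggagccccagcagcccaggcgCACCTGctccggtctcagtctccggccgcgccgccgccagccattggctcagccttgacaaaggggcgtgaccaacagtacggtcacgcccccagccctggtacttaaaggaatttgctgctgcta
Twist1, chr12:33957421-33957670: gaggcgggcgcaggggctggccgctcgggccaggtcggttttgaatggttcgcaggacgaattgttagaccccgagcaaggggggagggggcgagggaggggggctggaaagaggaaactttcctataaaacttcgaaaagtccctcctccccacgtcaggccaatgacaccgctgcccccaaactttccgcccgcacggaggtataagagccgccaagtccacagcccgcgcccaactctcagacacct
Twist2, chr1:91801211-91801460: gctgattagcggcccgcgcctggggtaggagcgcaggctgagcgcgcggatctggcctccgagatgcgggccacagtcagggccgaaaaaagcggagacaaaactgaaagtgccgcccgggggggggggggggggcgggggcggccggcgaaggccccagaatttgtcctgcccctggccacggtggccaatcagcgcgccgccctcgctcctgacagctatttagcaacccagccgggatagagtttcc
Of all 32851 promoter windows of this length, 5657 (17.2%) held the motif on either strand, and a match is a description of the letters, not of binding.

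Zeb1 (ENSMUSG00000024238, chr18:5591860-5775467, plus strand, up to 8 exons), a repressor with zinc-finger clusters at both ends, had 84.4, 91.6 and 79.8 CPM in Sub-ASCs, 34.7, 59.3 and 51.8 in Ab-ASCs, and 109, 110 and 109 in PVASCs. PVASCs were highest and Ab-ASCs lowest, with no overlap. PVASCs exceeded Ab-ASCs by 1.17 on the log2 scale (SE 0.14, edgeR adjusted p = 2.58e-05), and Ab-ASCs were below Sub-ASCs by -0.81 (SE 0.14, edgeR adjusted p = 0.000223). The rise over Sub-ASCs was 0.36 (SE 0.14, edgeR adjusted p = 0.0342) and did not pass without Sub-ASC replicate 1 or 3 or any 1 of the PVASC libraries, the adjusted p ranging from 1.09e-06 to 0.113 over the alternatives. Among the 6 factors Zeb1 was the only one whose level was highest in PVASCs.

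Zeb2 (ENSMUSG00000026872, chr2:44983632-45117395, minus strand, up to 11 exons), the related repressor also called SIP1 for its binding to Smad proteins, had 227, 255 and 223 CPM in Sub-ASCs, 126, 209 and 174 in Ab-ASCs, and 141, 148 and 143 in PVASCs. Sub-ASCs were above both other groups, whose ranges overlapped. Zeb2 fell in PVASCs against Sub-ASCs by 0.71 on the log2 scale (SE 0.13, edgeR adjusted p = 0.000461) and in Ab-ASCs by 0.47 (SE 0.13, edgeR adjusted p = 0.00718). Between PVASCs and Ab-ASCs the log2 fold change was -0.24, with a normal 95% interval of -0.50 to 0.02 and an edgeR adjusted p of 0.146. Without Ab-ASC replicate 1 it was -0.41 and passed (adjusted p = 1.62e-05), as it did without a filter on low counts (0.00162), and the adjusted p ranged up to 0.613 over the alternatives. The antisense gene Zeb2os had 15 to 30 reads per library, and Gm10125, antisense at the start of Zeb1, had 19 to 75. The ratio of Zeb2 to Zeb1 in FPKM was 0.678 ± 0.0110 in PVASCs, against 1.42 ± 0.0287 in Sub-ASCs and 1.81 ± 0.0730 in Ab-ASCs, so Zeb1 exceeded Zeb2 in PVASCs and Zeb2 exceeded Zeb1 in the others.

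The lowest Ab-ASC value of both Zeb genes came from replicate 1. There Zeb1 was -37.5% and Zeb2 -34.0% from the mean of replicates 2 and 3, Cdh11 -12.1%, Snai2 -12.2% and Cdh3 -10.0%. Snai1 was 12.2% and Twist2 16.5% above that mean, Cdh1 3.87% and Cdh2 1.58% above it, and Twist1 differed by -0.25%. Zeb1 and Zeb2 have listed lengths of 10266 and 19942 bases, within the longest quartile of genes, those of 6217 bases or more. In that quartile the median log2 difference of all genes was -0.18 between Ab-ASCs and Sub-ASCs and 0.10 between PVASCs and Ab-ASCs, against 0.10 and -0.09 in the shortest quartile. Not every member of that quartile was lower in replicate 1, since Cdh2 has 8066 bases, and Snai2, with 2021 bases, was lower. Cdh11, with 8904 bases, is in that quartile too, and its log2 fold change of -0.22 between Ab-ASCs and Sub-ASCs is near the quartile's median. The part of transcript length in the Zeb and Cdh11 differences was not tested.

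**Figure D3:**
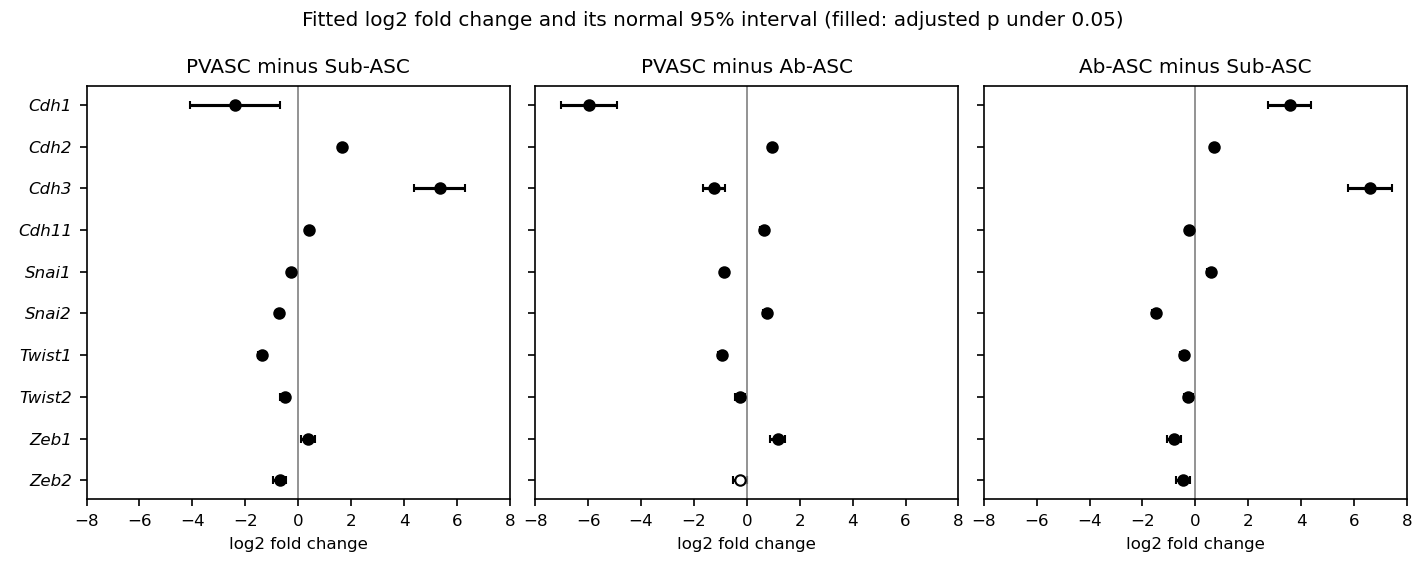
Fitted log2 fold change of each of the 10 genes (horizontal axis) in the 3 comparisons, with the normal 95% interval and filled points for an edgeR adjusted p under 0.05. Cdh1 and Cdh3 have the largest changes and the widest bars, Cdh2 and Zeb1 lie right of 0 and Twist1 left of 0 in both PVASC panels, and Zeb2 between PVASCs and Ab-ASCs is the open point.

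Summed over Snai1, Snai2, Twist1, Twist2, Zeb1 and Zeb2, the level was 173 to 177 FPKM in Sub-ASCs, 159 to 165 in Ab-ASCs and 110 to 119 in PVASCs. The depots also differed in which factor supplied it. Snai1 made up 34.1% ± 1.24 of the sum in Sub-ASCs, 55.1% ± 2.73 in Ab-ASCs and 43.4% ± 0.488 in PVASCs. Twist1 came next with 31.5% ± 1.87, 24.9% ± 0.782 and 18.6% ± 1.19 in that order. The share of Snai2 was 17.3% ± 1.21 in Sub-ASCs and 16.2% ± 0.400 in PVASCs but 6.64% ± 0.610 in Ab-ASCs, and that of Zeb1 was 9.38% ± 0.446 in PVASCs against 4.76% ± 0.269 in Sub-ASCs and 2.94% ± 0.806 in Ab-ASCs.

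Of 13 other transcription factors tied to EMT, 12 were tested, and they did not move in one direction: in PVASCs 6 rose and 4 fell from the Sub-ASC level (median log2 fold change 0.21) and 5 rose and 2 fell from the Ab-ASC level (0.30), and in Ab-ASCs 6 rose and 4 fell from the Sub-ASC level (0.24). The shares of all genes tested that passed were 70.4%, 56.9% and 75.3%, and Gsc and Klf8 met the read minimum in only part of the groups. The 10 that met it in every group gave 5 higher and 3 lower, 4 higher and 2 lower, and 6 higher and 3 lower. Foxc2, a forkhead factor of mesenchyme and lymphatic vessels, had the largest change, at 0.283 ± 0.0677 FPKM in Sub-ASCs, 13.7 ± 0.405 in Ab-ASCs and 20.0 ± 1.01 in PVASCs, a log2 fold change of 6.13 between PVASCs and Sub-ASCs (SE 0.11, edgeR adjusted p = 2.25e-13). Prrx1, a homeobox factor of limb and adipose mesenchyme, had the order of Snai2, with 72.1 ± 3.17 FPKM in Sub-ASCs, 34.4 ± 2.74 in Ab-ASCs and 48.3 ± 0.297 in PVASCs, each step passing the test. Goosecoid (Gsc) and Tcf4, an E protein, had that order too, at 4.67, 0.513 and 2.87 FPKM and at 6.79, 2.48 and 5.53 FPKM. Id1, an inhibitor that pairs with E proteins, was at 31.6 ± 3.42 FPKM in Sub-ASCs, 138 ± 13.5 in Ab-ASCs and 111 ± 4.65 in PVASCs, while Id2 was at 33.4, 23.2 and 23.0. Tcf3, an E protein that pairs with Twist and Id factors, was at 21.8, 25.7 and 27.9 FPKM.

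Epithelial genes that EMT factors repress were mostly low in these cells, with 11 of 24 tested and 13, among them Epcam, Ocln, Dsp and Grhl2, under the read minimum. Of the 11, 8 rose and 2 fell in Ab-ASCs against Sub-ASCs, 5 rose and 2 fell in PVASCs against Sub-ASCs, and 2 rose and 6 fell in PVASCs against Ab-ASCs, beside 75.3%, 70.4% and 56.9% of all genes tested. Of these 11, 7 met the read minimum in only part of the groups, Cldn4, Krt8 and Cdh16 through Ab-ASCs alone and Krt18 and Pkp1 through Ab-ASCs and PVASCs, so the counts are shaped by that selection. The 4 that met it in every group gave 2 higher and 2 lower, 3 higher and 1 lower, and 2 higher and 1 lower in the same comparisons. The simple-epithelial keratins were among those that rose in Ab-ASCs, with Krt8 at 0.196, 9.58 and 0.136 FPKM and Krt18 at 0.470, 9.32 and 5.85 FPKM in Sub-ASCs, Ab-ASCs and PVASCs. Both have processed copies elsewhere in the genome, so their values are uncertain, and they and Krt19 are also among the mesothelial markers given above. Krt19 was highest in PVASCs, at 7.93 ± 0.198 FPKM against 2.37 in Ab-ASCs and 0.602 in Sub-ASCs. The desmosomal plakophilin Pkp1 was near 0 in Sub-ASCs (0, 0 and 1 reads) and at 0.711 and 0.710 FPKM in Ab-ASCs and PVASCs. Kidney cadherin, Cdh16, was highest where Cdh1 was, with 0.189 FPKM in Ab-ASCs, 0.0141 in Sub-ASCs and 0.00875 in PVASCs. The tight-junction scaffold Tjp1 had the order of Zeb1, at 11.8 ± 0.195 FPKM in Sub-ASCs, 6.67 ± 1.09 in Ab-ASCs and 17.1 ± 0.408 in PVASCs.

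**Figure D4:**
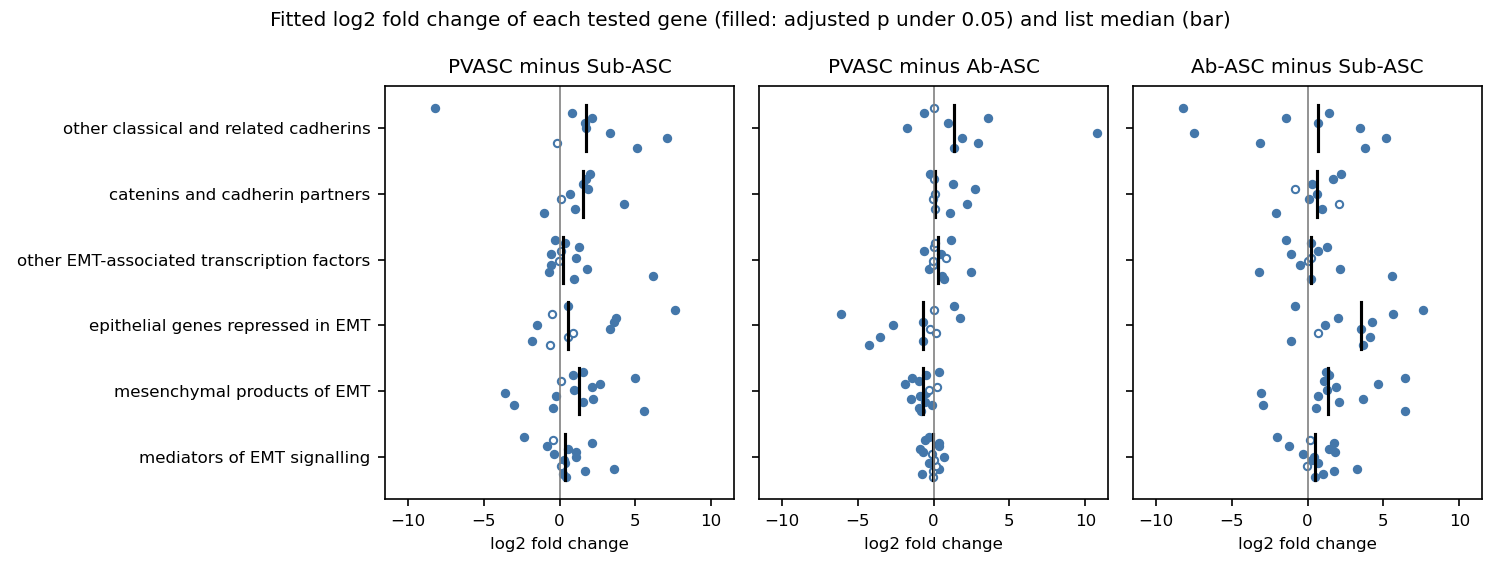
Fitted log2 fold change (horizontal axis) of each tested gene in the 6 gene lists, 1 row per list, in the 3 comparisons; filled points have an edgeR adjusted p under 0.05, and the bar is the list median. The farthest point of each panel is a rare cadherin that met the read minimum in only part of the groups (Cdh9, Cdh19 and Cdh9 from left to right). Each is fitted against a group without any read, so how far out it lies is not a measured size. The mesenchymal list has its bar at 1.25, -0.69 and 1.34 in the panels from left to right.

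Mesenchymal products of EMT were all tested. In Ab-ASCs 12 of 14 rose and 2 fell against Sub-ASCs (median log2 fold change 1.34), in PVASCs 9 rose and 4 fell against Sub-ASCs (1.25), and in PVASCs 1 rose and 11 fell against Ab-ASCs (-0.69). Of all genes tested, 75.3%, 70.4% and 56.9% passed in these comparisons, with medians of -0.03, -0.01 and -0.06. Fibronectin (Fn1) was at 302 ± 6.28 FPKM in Sub-ASCs, 1266 ± 43.5 in Ab-ASCs and 867 ± 27.9 in PVASCs. The fibronectin receptor subunit Itga5 was at 34.3, 429 and 155 FPKM in that order. The contractile genes Acta2, at 29.6, 2491 and 1407 FPKM, and Tagln, at 0.402, 34.6 and 13.0, had the largest differences from Sub-ASCs, and both are smooth muscle markers as well. The 6 smooth muscle markers summed to 90.8 to 95.9 CPM in Sub-ASCs, 4566 to 5640 in Ab-ASCs and 2758 to 2900 in PVASCs. Most of each sum was Acta2 itself, at 4017 to 5042 CPM in Ab-ASCs and 2454 to 2598 in PVASCs. Myh11, Cnn1, Smtn and Des, which are not in the mesenchymal list, were also lowest in Sub-ASCs and highest in Ab-ASCs. The part of smooth muscle transcripts in the list was not tested. The 2 genes that fell in both groups against Sub-ASCs, Col3a1 and Mmp2, were named after their values were seen, at 928, 123 and 113 FPKM for the fibrillar collagen and 937, 112 and 78.2 FPKM for the gelatinase.

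Mediators of EMT signalling, chiefly the TGF-β pathway and co-repressors of the Snail and Zeb factors, were all 15 tested. Against Sub-ASCs, 10 rose and 3 fell in PVASCs (median log2 fold change 0.36) and 10 rose and 3 fell in Ab-ASCs (0.48), and 4 rose and 6 fell in PVASCs against Ab-ASCs (-0.07), beside 70.4%, 75.3% and 56.9% of all genes tested. The ligand Tgfb1 was at 17.7, 46.9 and 25.5 FPKM and the ligand Tgfb3 at 5.32, 17.7 and 22.9 FPKM in Sub-ASCs, Ab-ASCs and PVASCs. The remaining ligand, Tgfb2, named after its values were seen, had a log2 fold change of -1.22 in Ab-ASCs and -0.84 in PVASCs from its Sub-ASC level of 4.66 FPKM (edgeR adjusted p = 3.16e-07 and 7.17e-06). The receptor Tgfbr2 fell from 88.2 ± 1.68 FPKM in Sub-ASCs to 21.6 ± 0.656 in Ab-ASCs and 17.6 ± 0.612 in PVASCs, a log2 fold change of -2.33 for PVASCs against Sub-ASCs (SE 0.05, edgeR adjusted p = 7.31e-13). The inhibitory Smad7, a target of the pathway, was at 5.63, 19.8 and 12.0 FPKM. Hmga2, a chromatin protein able to bind the Snai1 and Twist1 promoters, was at 6.30 ± 0.560 FPKM in Sub-ASCs, 61.0 ± 2.73 in Ab-ASCs and 76.8 ± 1.76 in PVASCs, and the co-repressor Ctbp1 was at 33.4, 46.5 and 44.3.

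The genes whose log2 CPM ran closest to each of the 10 over the 9 libraries were also listed, among genes of at least 5 CPM on average. As a description, since all points share the 3 groups, Cdh2 was closest to Osbpl3 (Pearson r = 0.999) and Cttnbp2nl (0.996), and Cdh11 to Zdhhc20 (0.995) and Cbx3 (0.991). Rasl12 (0.983) was among the genes closest to Cdh1, and Oip5 (0.996) among those closest to Cdh3. Snai1 was closest to Clstn1 (0.998) and Slc3a2 (0.992), Snai2 to Gvin1 and Sox5 (both 0.998), Twist1 to Dmrt2 (0.996) and Lamtor3 (0.994), and Twist2 to Dcaf11 (0.979) and Ift27 (0.977). Zeb1 was closest to G2e3 (0.998) and Tfpi (0.996), and Zeb2 to Cd36 (0.986) and Hcfc2 (0.980). Between 17 genes (for Zeb2) and 1097 genes (for Cdh3) of about 11035 compared had an r over 0.95 with a given member.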

How the data were processed

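The authors isolated ASCs by enzymatic digestion, extracted RNA with Trizol and made libraries with the NEBNext Ultra kit. They deposited 1 table of raw read counts per gene and library with gene positions and lengths, without normalization. The submitters' processing notes name CASAVA 1.8, Bowtie 0.12.2 and featureCounts 1.5.0-p3 and the builds mm8 and mm10, and the strand setting is not given in the sources used here. Positions of 53548 of the 54532 genes equal those of GENCODE M21, which is on GRCm38. Columns were assigned to groups from the labels, and 0 columns of other samples were present.

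Counts were filtered with filterByExpr, scaled by TMM and tested with edgeR 4.0.16 (R 4.3.3) in 1 quasi-likelihood fit of all 9 libraries, with Benjamini-Hochberg adjustment over the 16526 genes tested. SE is the log2 fold change divided by the square root of F. FPKM used the listed gene length. For groups with few reads, ratios of summed reads with exact 95% intervals are given, and intervals and the floor of 3 reads cover counting error only. The alternatives were DESeq2 1.42.0, RLE scaling, no filter, at least 10 reads in every library, only the groups compared, a replicate block, leaving out each library, and a minimum log2 fold change of 1. The genes, marker lists and other lists were chosen with earlier results of these data known. Named from each list were the 4 genes of highest mean FPKM and the 4 of largest change among those passing in at least 2 comparisons, every gene of lists under 11, and the 2 genes closest in pattern to each member. A few genes that this rule names are not reported here. Promoters came from RefSeq for 4 of the 10 genes. Entries on chr18, where Cdh2 and Zeb1 lie, were not used for these genes but were kept among all promoter windows.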

Additional observations from a re-analysis of the deposited data

How the results depend on the processing

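Under 16 alternatives, none of 473 values of single members changed direction. Of these, 431 kept their side of the threshold, 40 lost it (19 of them at the fold-change minimum) and 2, both Zeb2 between PVASCs and Ab-ASCs, gained it. Requiring a log2 fold change of at least 1 left 4, 3 and 3 of the 10 genes when PVASCs were compared with Sub-ASCs, when they were compared with Ab-ASCs, and for the other pair, and 5328, 2551 and 6241 of all genes. Leaving out each library gave 8 to 10, 8 to 9 and 9 to 10 genes, and 10954 to 12736, 8294 to 9675 and 11976 to 12714 of all genes. Requiring 10 reads in every library removed Cdh1 and Cdh3 and left 8, 6 and 8 of 8, and 9528, 7947 and 10203 of all genes. The edgeR fit with replicate number as a block passed 10, 9 and 10 genes, and 11458, 9183 and 12302 of all genes against 11628, 9396 and 12442 without it. Libraries of one number did not deviate together (correlations of -0.04 to 0.07), so the numbers are not taken as pairs. The depth limits Cdh1 in PVASCs and Sub-ASCs and Cdh3 in Sub-ASCs, where group totals were 2, 10 and 3 reads. Passage and cell makeup cannot be told apart from depot.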
